A study of Mus musculus with 22 samples.

Results

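Solute carriers are membrane proteins that move nutrients, ions, metals and metabolites across the plasma membrane and the membranes of organelles. The solute carriers described here are the genes whose symbol starts with Slc and a number and whose mean reached at least 10 CPM (counts scaled to a common library total) in at least 1 of 8 groups of bone marrow eosinophils. The rule kept 153 of 376 such symbols, out of 24982 gene symbols in all. The members were thus chosen by their measured CPM, so the level of a member is given as a description. Of the 153, 92 reached the threshold in all 8 groups, 49 in 2 to 7 groups and 12 in 1 group. Among the 12 were Slc35g1, Slc25a15, Slc5a6, Slc43a1, Slc39a10 and Slc16a10 in isotype stage I and Slc6a4 in isotype stage IV. In anti-IL5 mice they included Slc25a40 and Slc26a8 at stage I and Slc46a3 and Slc41a1 at stage IV. Such a member had to differ between groups to be kept, so counts over the members are descriptions. The same holds for members kept through 1 stage, as Slc2a6, Slc16a9 and Slc8a1 were through stage IV and Slc27a1 and Slc7a4 through stage I. Slc15a2 was kept through anti-IL5 groups alone. Members kept through early or late stages only, such as Slc11a1, also had to differ between stages. The members with the lowest peak were Slc26a8 (10.17 CPM), Slc16a13 (10.98 CPM) and Slc25a40 (11.09 CPM), and the symbols just below the threshold were Slc26a6 (9.995 CPM), Slc25a30 (9.935 CPM) and Slc4a8 (9.003 CPM). All 153 passed the filter on low counts, and 90 of the 376 symbols had 0 counts in every library.

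The libraries came from wild type C57BL6 mice that had been given IL-33, 400 ng by intraperitoneal injection on each of 7 days. Beginning on the day of the last IL-33 dose, mice then got 3 daily injections of 400 µg of either an antibody to IL-5 or an isotype control antibody, so all 8 groups share the IL-33 treatment and no group lacks it. Marrow cells bearing Ly6G, CD90.2, NK1.1 or CD45R were removed, and the other cells were sorted by surface markers into developmental stages I to IV at a stated purity of at least 95%. Each antibody had 11 libraries, 3 per stage and 2 at stage II. The labels do not say whether libraries came from separate mice or from pools, so p-values measure the spread between these libraries, which may be technical. Below, "isotype" and "anti-IL5" name the antibody, a value for each library is given in replicate order, and CPM are scaled by TMM unless the membership rule is meant.

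Eosinophil precursors divide and fill their cytoplasm with granule proteins before they become small, long-lived migratory cells, and IL-5 is the cytokine that drives their production and survival. Solute carriers set which nutrients such a cell can take up. Slc7a5 with its partner Slc3a2 imports large neutral amino acids such as leucine, Slc2a members carry glucose, and Slc16a members carry lactate. Most of the Slc25a family serves the inner mitochondrial membrane.

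Gene counts per library ran from 7161264 to 14781250, and the floor of 3 counts equalled 0.203 to 0.419 CPM, which covers counting error only. The sort was checked against lists of marker genes. The summed level of 10 eosinophil markers was 42590 to 68170 CPM at stages I to III in isotype libraries and 10740 to 12120 CPM at stage IV. Over these stages the group mean of Epx, a granule protein gene, went from 22430 to 389 CPM and that of Ccr3, the eotaxin receptor, from 4.89 to 2719 CPM. The 6 T and NK cell markers summed to at most 2.04 CPM. The 8 erythroid markers summed to 1.75 to 32.8 CPM, with the 4 globin genes at 0 in every group and Klf1, an erythroid transcription factor also on the list, at a mean of 23.1 CPM at isotype stage I. The 5 B lineage markers summed to 9.44 to 68.2 CPM. The 5 megakaryocyte markers summed to 95.7 to 1261 CPM, nearly all of it Itga2b (885 CPM at isotype stage I), while Pf4 had a group mean of at most 6.43 CPM. The 7 monocyte and macrophage markers summed to 948.8 to 3882 CPM, mostly Ly6c2, Vcam1 and Csf1r. Basophil and mast cell markers (6 genes) summed to 951 to 1491 CPM at stage I and 23.5 to 31.98 CPM at stage IV in isotype libraries. The 10 neutrophil markers summed to 2736 to 12320 CPM. These lists moved with stage, and their part in the changes given below was not tested.

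The start of transcription is shown first for 5 members that recur below and hold a match to a short motif. Members lower under anti-IL5 were compared for such motifs, and windows without a match are not printed. The windows are the 250 bases before the annotated start, from RefSeq on GRCm38.p6, each read on the strand of the gene. Capitals mark CACGTG, the core of an E-box, and, for Slc35b1, TTCNNNGAA, the core of a STAT site, both of which read the same on either strand. Slc16a1 lies at chr3:104638414-104638663, plus strand, Slc39a8 (a second annotated start) at chr3:135825407-135825656, plus strand, Slc20a1 at chr2:129198523-129198772, plus strand, Slc25a1 at chr16:17928220-17928469, minus strand and Slc35b1 at chr11:95384606-95384855, plus strand. GENCODE, used for gene positions below, starts Slc35b1 earlier, at 95384692. By that annotation part of its window, with the marked match, lies inside the gene. The printed Slc39a8 window lies wholly inside its gene by GENCODE, which starts Slc39a8 at 135825279. Slc20a1 and Slc39a8 each have another window, not printed, without any of the motifs searched.
Slc16a1: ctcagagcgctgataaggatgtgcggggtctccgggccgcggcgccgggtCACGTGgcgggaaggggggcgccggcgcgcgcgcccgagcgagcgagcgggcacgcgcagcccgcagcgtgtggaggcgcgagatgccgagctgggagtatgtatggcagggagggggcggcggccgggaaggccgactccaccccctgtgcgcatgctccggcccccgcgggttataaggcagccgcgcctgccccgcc
Slc39a8: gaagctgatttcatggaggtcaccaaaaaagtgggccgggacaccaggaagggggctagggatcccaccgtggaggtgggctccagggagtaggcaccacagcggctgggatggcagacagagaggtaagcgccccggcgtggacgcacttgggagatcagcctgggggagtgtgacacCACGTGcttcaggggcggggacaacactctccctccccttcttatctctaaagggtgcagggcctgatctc
Slc20a1: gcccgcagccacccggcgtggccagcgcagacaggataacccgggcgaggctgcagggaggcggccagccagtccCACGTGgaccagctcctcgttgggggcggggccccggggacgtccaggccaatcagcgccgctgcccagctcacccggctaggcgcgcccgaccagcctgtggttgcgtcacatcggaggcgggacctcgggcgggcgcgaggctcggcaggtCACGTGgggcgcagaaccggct
Slc25a1: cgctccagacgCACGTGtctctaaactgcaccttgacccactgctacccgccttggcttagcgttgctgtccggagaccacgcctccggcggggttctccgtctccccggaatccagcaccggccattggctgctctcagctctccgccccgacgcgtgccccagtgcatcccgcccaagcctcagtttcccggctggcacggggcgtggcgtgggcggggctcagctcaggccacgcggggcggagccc
Slc35b1: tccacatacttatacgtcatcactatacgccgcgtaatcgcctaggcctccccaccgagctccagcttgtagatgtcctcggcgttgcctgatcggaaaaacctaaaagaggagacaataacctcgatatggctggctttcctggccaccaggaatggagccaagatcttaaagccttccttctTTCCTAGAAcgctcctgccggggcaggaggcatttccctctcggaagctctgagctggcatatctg
RefSeq windows matched 118 of the 153 members. CACGTG was present in at least 1 window of 20 of 118 members (16.95%), of 6 of the 20 matched members called lower under anti-IL5 averaged over stages (30%), and of 977 of 9792 matched tested genes (9.978%). The 6 were Slc16a1, Slc20a1, Slc25a1, Slc25a15, Slc25a33 and Slc39a8. TTCNNNGAA was present for 10 of 118 members and 2 of the 20 (Slc35b1 and Slc7a1), against 7.23% of tested genes. TGATGNAA, the core of an ATF4 site, searched on both strands, was present for 3 of 118 members, 0 of the 20 and 2.53% of tested genes. Each printed window holds 1 kind of motif, so no matches overlap in it. These matches describe letters in a window and are not binding sites, and no test was made on them.

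By role, the 153 members held 30 mitochondrial carriers, 22 metal transporters, 21 members of amino acid carrier families, 19 nucleotide sugar transporters, 16 carriers of ions and pH, 12 of lipids, vitamins and cofactors, 10 of peptides and organic ions, 8 of sugars, 8 of carboxylates, 4 of phosphate and 3 of nucleosides. Of these symbols 4 do not name transporters: Slc9a3r1 and Slc9a3r2 are the NHERF scaffolds, and Slc4a1ap and Slc7a6os are named for a partner and a neighbour of a carrier. The amino acid families also hold Slc43a3 and Slc6a4, which are known for other substrates. The mitochondrial carriers are all 30 members of the Slc25a family, whatever the membrane of each. Scaled by exon length, Slc25a5, the ADP/ATP exchanger of mitochondria, had the highest level of any member averaged over groups, at 342.6 CPM per kb. Slc9a3r1 came next (229 CPM per kb) and exceeded it at isotype stage IV (423.4 against 255.2 CPM per kb) and at anti-IL5 stages III (305.1 against 254.9) and IV (340 against 241.2). These were followed by Slc1a5, a carrier of glutamine and other neutral amino acids (106.7 CPM per kb), Slc39a7, a zinc carrier of the endoplasmic reticulum and Golgi (89.5 CPM per kb), Slc25a11, the oxoglutarate/malate carrier of mitochondria (89.4 CPM per kb), and Slc2a3, the glucose transporter GLUT3 (80.6 CPM per kb). The summed level of all members was 8251 to 9518 CPM at stages I and II and 9443 to 11670 CPM at stages III and IV in isotype libraries. The 8 sugar carriers held 320.7 to 349.9 CPM of it at stage I and 1216 to 1535 CPM at stage IV, while the 30 mitochondrial carriers held 2090 to 2470 CPM and 2060 to 2147 CPM. In isotype mice the highest group mean lay at stage I for 57 members, II for 15, III for 18 and IV for 63 (37.3%, 9.80%, 11.8% and 41.2%). Of all genes that reached 10 CPM in at least 1 group, these shares were 27.6%, 18.8%, 14.9% and 38.7%. In anti-IL5 mice the counts were 52, 15, 16 and 70 (33.99%, 9.80%, 10.5% and 45.8%), against 28.8%, 17.5%, 19.4% and 34.3%.

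Across the whole of maturation, the solute carriers changed about as often as other genes. Between stages I and IV in isotype mice, 101 of 153 members passed the edgeR quasi-likelihood test at a Benjamini-Hochberg adjusted p under 0.05, 53 higher and 48 lower at stage IV. Of all 12387 tested genes 66.2% passed (32.3% higher, 33.9% lower). Of the genes that reached 10 CPM in at least 1 group, as the members did, 73.6% passed. In anti-IL5 mice 102 passed, 58 higher and 44 lower. There 63.5% of all tested genes passed (30.7% higher, 32.8% lower), and 71% of those that reached 10 CPM. The 2 comparisons use separate libraries. Of the members higher in isotype mice 98.1% were also higher in anti-IL5 mice (52 members, 89.7% of those higher there), and of the lower ones 81.3% were also lower (39 members, 88.6% of those lower there). No member passed in opposite directions, and 41 passed in neither. This overlap was not computed over all tested genes, so it is not shown to be particular to the members. In bulk libraries of sorted cells, fewer cells of a type and less RNA per cell cannot be told apart.

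The steps between stages were unequal in size. From stage I to II, 19 members passed in isotype mice, 8 higher and 11 lower. Of all tested genes 10.6% passed (7.39% higher, 3.25% lower), and 13.5% of those that reached 10 CPM. In anti-IL5 mice 29 passed, 11 higher and 18 lower, against 12.4% (7.27% and 5.16%) and 15.6%. At this step more members were lower than higher in both antibody groups, while more of all tested genes were higher than lower. From II to III, 55 members passed in isotype mice, 36 higher and 19 lower, against 37.1% (19% and 18.1%) and 45.9%. In anti-IL5 mice 65 passed, 39 higher and 26 lower, against 39.5% (19.8% and 19.7%) and 49%. From III to IV, 61 passed in isotype mice, 32 higher and 29 lower, against 33.6% (14.8% and 18.8%) and 39.5%. In anti-IL5 mice 46 passed, 27 higher and 19 lower, against 23.8% (10.4% and 13.4%) and 28.3%. The count for the step from I to II depended on single libraries. Without isotype stage II replicate 1 it was 6 in isotype mice, and in anti-IL5 mice it was 12 without stage II replicate 1 and 18 without stage I replicate 3.

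Between stages I and IV 32.3% of all tested genes were higher and 33.9% lower in isotype mice, and 30.7% and 32.8% in anti-IL5 mice. These shares stand beside each count by role for these stages below. Of the 8 sugar carriers 3 were higher and 1 lower at stage IV than at stage I in isotype mice, and 4 and 2 in anti-IL5 mice. The 3 were hexose transporters of the Slc2a family, which has 4 members here. Slc2a3 (chr6:122727809-122801640, minus strand), the high-affinity glucose transporter GLUT3, read 60.2, 36.6 and 45.2 CPM at stage I, 167 and 145 CPM at stage II, 819, 1161 and 659 CPM at stage III and 910.2, 1123 and 963 CPM at stage IV in isotype libraries. Every stage II library lay above every stage I library and below every stage III library, and stages III and IV overlapped. It rose from I to II (log2 1.72 ± 0.25, adjusted p = 0.000116) and from II to III (log2 2.50 ± 0.28, adjusted p = 1.59e-06), and the last step did not pass (log2 0.18 ± 0.22, adjusted p = 0.566). Slc2a1, the widely expressed glucose transporter GLUT1, rose later. Its isotype libraries read 21.4, 19.6 and 25.4 CPM at stage I, 43.5, 65.7 and 55.1 CPM at stage III and 139, 209 and 191 CPM at stage IV, with no overlap between these stages, and it rose from III to IV (log2 1.71 ± 0.18, adjusted p = 1.41e-07). Slc2a6, a glucose transporter family member found in lysosomes, went from 1.33, 1.14 and 2.07 CPM to 14.5, 31.7 and 35.1 CPM (log2 4.15 ± 0.82, adjusted p = 0.00015). It reached the membership threshold at stage IV alone, so this rise is a description. The remaining family member, Slc2a8 (GLUT8), read 19.7, 29.5 and 27.8 CPM and 15.5, 33.9 and 26.7 CPM with overlap in isotype mice (log2 -0.02 ± 0.33, adjusted p = 0.969) and was lower at stage IV in anti-IL5 mice, where the libraries overlapped too (log2 -0.78 ± 0.33, adjusted p = 0.0461). The sugar carrier lower in both antibody groups was Slc45a3, named prostein and known from prostate, at 70.5, 90.4 and 81.0 CPM against 2.81, 1.29 and 2.62 CPM (log2 -5.18 ± 0.33, adjusted p = 1.73e-11).

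The monocarboxylate carriers, some of which move lactate and pyruvate with a proton, moved in opposite directions. Slc16a1 (chr3:104638668-104658462, plus strand), the lactate transporter MCT1, read 72.3, 87.3 and 55.7 CPM at stage I and 1.36, 0.0757 and 0.187 CPM at stage IV in isotype libraries. All stage I libraries lay above all stage IV libraries, of which replicate 1 was the highest, and it fell (log2 -7.03 ± 0.75, adjusted p = 4.38e-08). Slc16a3, the lactate exporter MCT4 of cells with high glycolysis, moved the other way, from 33.8, 45.3 and 36.3 CPM to 409, 482 and 471 CPM without overlap (log2 3.56 ± 0.18, adjusted p = 6.49e-13). It rose at each of the 3 steps in both antibody groups. Slc16a9, a carnitine carrier, had 1 count over the 3 isotype stage I libraries and 12.8, 22.3 and 22.6 CPM at stage IV, a ratio of 650-fold with a 95% counting interval of 116 to 25730. In anti-IL5 mice the ratio was 232-fold (79.1 to 1129). Slc16a9 reached the membership threshold at stage IV alone, so both ratios are descriptions. Of the 8 carboxylate carriers 2 were higher and 5 lower at stage IV in isotype mice, and 3 and 4 in anti-IL5 mice, Slc16a7, the lactate carrier MCT2, being higher in the latter.

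**Figure D1:**
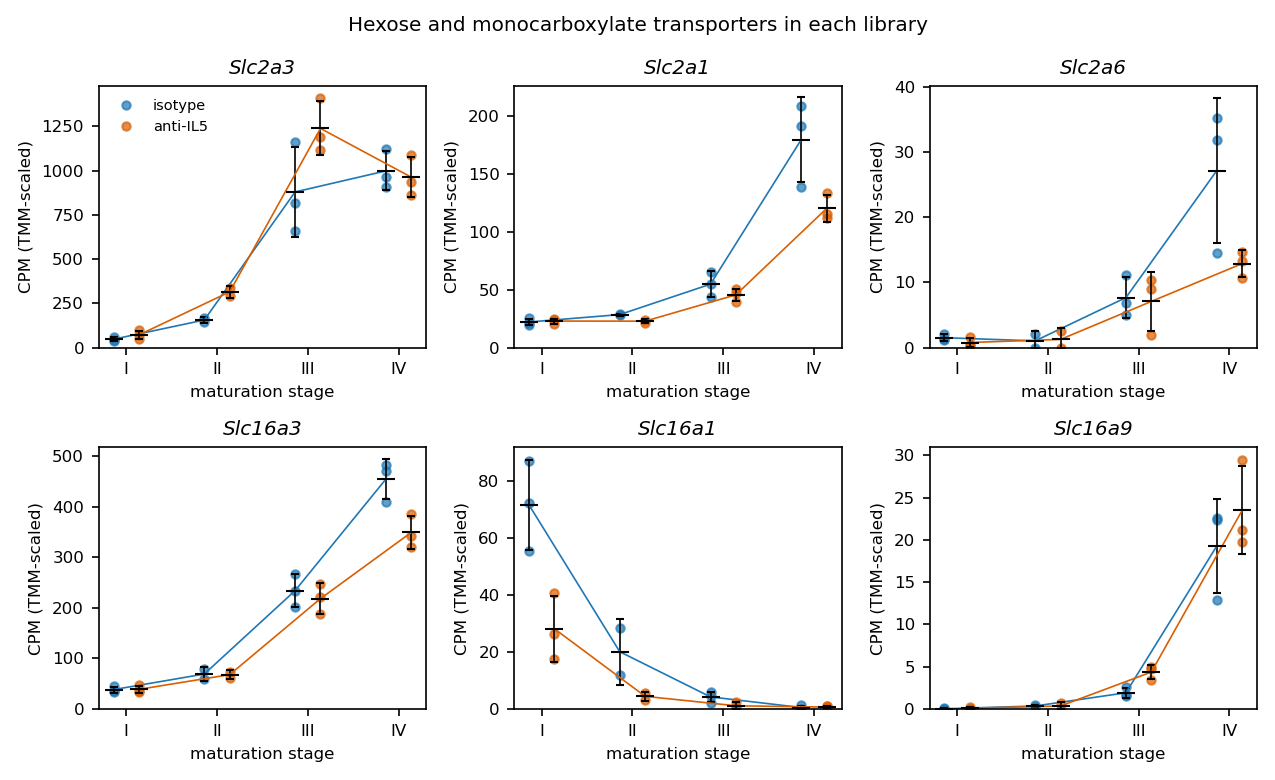
Level of 3 hexose carriers (top) and 3 monocarboxylate carriers (bottom) in each library, as TMM-scaled CPM (y axis) by maturation stage (x axis) for isotype (blue) and anti-IL5 (orange) mice, with bars for mean ± SD and lines joining means. Slc2a3, Slc2a1, Slc2a6, Slc16a3 and Slc16a9 are highest at stages III or IV, and Slc16a1 is highest at stage I.

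The amino acid carrier families were split between early and late stages, with 9 of 21 members higher and 9 lower at stage IV in isotype mice and 9 and 7 in anti-IL5 mice. Among the early ones, Slc1a5 read 733, 601 and 530.1 CPM at stage I and 236, 259 and 248 CPM at stage IV, with no overlap (log2 -1.33 ± 0.25, adjusted p = 8.04e-05). Slc7a5 (chr8:121881150-121907694, minus strand), the leucine importer LAT1, read 76.7, 61.9 and 61.9 CPM at stage I and 8.76, 3.48 and 4.49 CPM at stage IV in isotype libraries (log2 -3.58 ± 0.46, adjusted p = 5.34e-07). Its partner Slc3a2 (CD98 heavy chain) changed far less, from 338, 306.4 and 331 CPM to 192, 249.1 and 226 CPM (log2 -0.55 ± 0.16, adjusted p = 0.00506). Slc43a3, a purine nucleobase carrier of a family otherwise known for amino acids, fell from a mean of 256 ± 40.2 CPM to 3.50 ± 0.666 CPM (SD, n = 3, no overlap, log2 -6.19 ± 0.35, adjusted p = 2.56e-12). Slc7a4, a relative of the cationic amino acid carriers, held 19.1, 13.7 and 11.3 CPM at stage I and 0 counts in each stage IV library, which is at least 180-fold lower in isotype mice and at least 153-fold lower in anti-IL5 mice against 3 counts over the group. Slc7a4 reached the membership threshold at stage I alone, so its fall is a description.

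Later stages carried other amino acid transporters. Slc6a6, the taurine transporter, read 41.7, 42.9 and 39.2 CPM at stage I, 54.1 and 66.2 CPM at stage II, 164, 199.8 and 178 CPM at stage III and 279, 291 and 298.3 CPM at stage IV in isotype libraries. The 4 stages did not overlap, and each step passed edgeR (whole change log2 2.81 ± 0.13, adjusted p = 3.56e-13). Slc7a8, the neutral amino acid exchanger LAT2, was at 51.9, 37.6 and 38.7 CPM at stage I and 167, 256 and 193 CPM at stage IV (log2 2.27 ± 0.34, adjusted p = 4.47e-06). Slc7a11, the cystine importer xCT that feeds glutathione synthesis, had its highest group mean at stage III. It read 112, 69.8 and 92.4 CPM at stage I, 444, 385 and 483 CPM at stage III and 164, 178 and 274 CPM at stage IV in isotype libraries, with stage III above both, and the step from III to IV did not pass in isotype mice (log2 -1.09 ± 0.46, adjusted p = 0.0777) and passed in anti-IL5 mice (log2 -1.54 ± 0.47, adjusted p = 0.022). Slc6a4, the serotonin transporter, had 0 counts at stages I and II and 8.51, 31.4 and 16.5 CPM at stage IV in isotype mice, at least 218-fold above stage I, against 1.91, 1.33 and 2.07 CPM in anti-IL5 mice, at least 17.1-fold above stage I. These stage IV libraries did not overlap between antibodies, and the difference did not pass (adjusted p = 0.0745). Slc6a4 reached the membership threshold in isotype stage IV alone, so these differences are descriptions.

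Metal carriers divided 8 higher and 8 lower of 22 at stage IV in isotype mice (8 and 7 in anti-IL5 mice). Slc11a1 (chr1:74375195-74386062, plus strand), the NRAMP1 exporter of iron and manganese from phagosomes, read 0.0739, 1.04 and 0.849 CPM at stage I, 14, 13.5 and 13.1 CPM at stage III and 63.3, 55.7 and 49.3 CPM at stage IV in isotype libraries. Every stage IV library lay above every earlier one, and the rise was log2 6.50 ± 0.49, adjusted p = 1.78e-10. In anti-IL5 libraries it went from 0.474, 0.476 and 0.584 CPM to 109, 106 and 57.1 CPM (log2 7.43 ± 0.51, adjusted p = 6.54e-11). Slc40a1, ferroportin, the iron exporter of the plasma membrane, read 105, 117 and 130.5 CPM and 244, 189 and 323 CPM at these stages in isotype mice (log2 1.10 ± 0.24, adjusted p = 0.00039). The iron importer Slc11a2 (DMT1) fell from 45.1, 37.5 and 30.6 CPM to 2.81, 10.8 and 10.1 CPM (log2 -2.26 ± 0.40, adjusted p = 4.03e-05). So did Slc31a1, the copper importer CTR1, at 40.1, 50.9 and 43.4 CPM against 6.89, 8.03 and 5.71 CPM (log2 -2.70 ± 0.26, adjusted p = 1.05e-08). The early stages had more of Slc11a2 and Slc31a1 and the late stages more of Slc11a1 and Slc40a1. Among zinc carriers, the importer Slc39a4 rose from 6.28, 5.41 and 15.4 CPM to 81.4, 88.8 and 142 CPM (log2 3.53 ± 0.39, adjusted p = 5.43e-08), whereas Slc30a2, which loads zinc into vesicles, fell from 68.1, 73.9 and 74.9 CPM to 5.87, 12.6 and 8.52 CPM (log2 -3.002 ± 0.24, adjusted p = 6.39e-10).

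**Figure D2:**
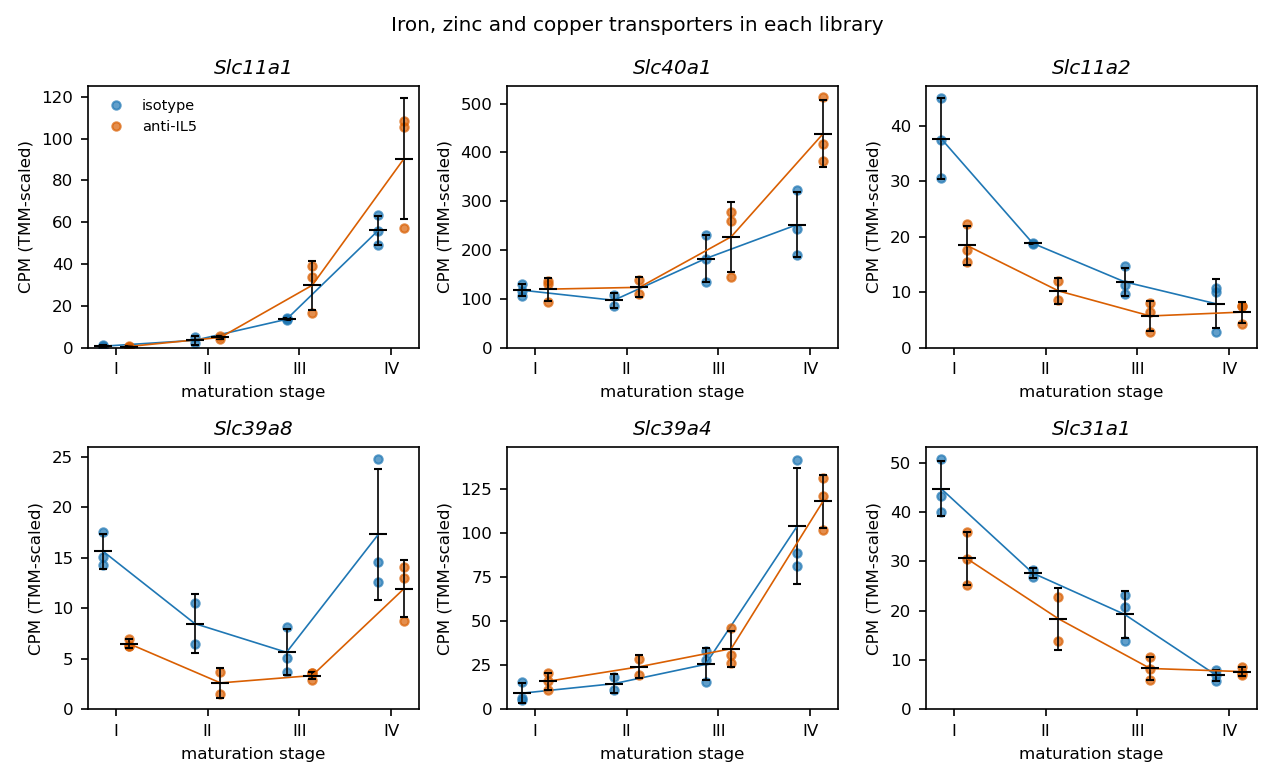
Level of 6 metal carriers in each library, as TMM-scaled CPM (y axis) by maturation stage (x axis) for isotype (blue) and anti-IL5 (orange) mice, with bars for mean ± SD and lines joining means. Slc11a1, Slc40a1 and Slc39a4 are highest at stage IV, Slc11a2 and Slc31a1 at stage I, and Slc39a8 is lowest at stages II and III.

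Of 30 mitochondrial carriers 10 were higher and 7 lower at stage IV in isotype mice, with a median log2 change of 0.02 over the 30 against -0.04 over all tested genes. Slc25a5 declined from 672, 872 and 893 CPM to 430.0, 404 and 426 CPM (log2 -0.95 ± 0.17, adjusted p = 5.25e-05), and the related ADP/ATP exchanger Slc25a4 from 54.3, 66.4 and 54.2 CPM to 12.7, 10.2 and 11.5 CPM (log2 -2.35 ± 0.22, adjusted p = 5.5e-09). A pair of aspartate/glutamate exchangers of the malate-aspartate shuttle went in opposite directions. Slc25a13 fell from 18.9, 31.9 and 17.5 CPM to 0.510, 1.21 and 0.749 CPM (log2 -4.75 ± 0.57, adjusted p = 2.06e-07), while Slc25a12 went from 64.5, 77.2 and 66.4 CPM to 121, 129.6 and 122 CPM (log2 0.84 ± 0.19, adjusted p = 0.000542). Libraries of both stages did not overlap for either gene. Slc25a3, the phosphate carrier that supplies ATP synthase, did not pass (log2 -0.17 ± 0.14, adjusted p = 0.268), at 156, 196 and 181 CPM and 151, 143 and 179 CPM.

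In the other roles, 8 of 16 carriers of ions and pH were higher and 2 lower at stage IV in isotype mice (9 and 3 in anti-IL5 mice). Slc8a1, the sodium calcium exchanger NCX1, read 3.70, 3.54 and 3.11 CPM at stage I, 0, 0 and 0.754 CPM at stage III and 21.9, 9.32 and 16.8 CPM at stage IV. Its last step passed in isotype mice (log2 5.95 ± 0.95, adjusted p = 4.68e-05) and in anti-IL5 mice (log2 5.53 ± 0.88, adjusted p = 7.15e-05). Slc8a1 reached the membership threshold at stage IV alone, so this rise is a description. Carriers of peptides and organic ions were lower in 5 of 10 cases and higher in 1. Slc22a3 (chr17:12418960-12507704, minus strand), the organic cation transporter OCT3 that carries histamine and other amines, read 44.4, 43.3 and 48.8 CPM at stage I and 0, 2.27 and 1.69 CPM at stage IV (log2 -5.08 ± 0.82, adjusted p = 1.82e-05). The vesicular monoamine transporter Slc18a2 fell as well, from 54.8, 30.3 and 52.05 CPM to 18.3, 12.1 and 22.2 CPM (log2 -1.39 ± 0.29, adjusted p = 0.000265). Beside these falls, the summed basophil and mast cell markers fell from 951 to 1491 CPM to 23.5 to 31.98 CPM, and their part was not tested.

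Among carriers of lipids, vitamins and cofactors, 5 of 12 were higher and 2 lower at stage IV in isotype mice. Slc19a1, the reduced folate carrier, fell from 67.0, 79.9 and 68.6 CPM to 1.11, 3.94 and 2.62 CPM (log2 -4.80 ± 0.47, adjusted p = 9.55e-09). Slc27a1 and Slc27a4, both fatty acid transport proteins, went in opposite directions, Slc27a1 from 24.3, 17.0 and 23.1 CPM to 0.510, 0.0757 and 0.562 CPM (log2 -5.81 ± 0.70, adjusted p = 2.39e-07) and Slc27a4 from 28.2, 18.9 and 17.1 CPM to 253, 185 and 159 CPM (log2 3.21 ± 0.24, adjusted p = 1.85e-10). Slc27a4 was highest at stage III, at 393, 338 and 221 CPM. The choline carrier Slc44a1 rose from 0.370, 1.66 and 1.13 CPM to 15.2, 21.8 and 13.6 CPM (log2 4.03 ± 0.56, adjusted p = 1.84e-06), and the lysosomal Slc46a3 from 0.739, 0.416 and 0.189 CPM to 8.34, 9.32 and 13.95 CPM (log2 4.47 ± 0.77, adjusted p = 2.64e-05). Slc46a3 reached the membership threshold in anti-IL5 stage IV alone, Slc27a1 at stage I alone and Slc44a1 at later stages alone. The differences of these members between stages are descriptions. Nucleotide sugar carriers, which supply the Golgi and endoplasmic reticulum with building blocks for glycans, were higher in 6 and lower in 7 of 19 cases. Slc35b1 (chr11:95384692-95391776, plus strand), which brings ATP into the endoplasmic reticulum, fell from 155, 211 and 198 CPM to 23.6, 21.97 and 25.5 CPM (log2 -2.99 ± 0.18, adjusted p = 8.38e-12), and Slc35a5 rose from 19.3, 21.4 and 14.5 CPM to 164, 167 and 127 CPM (log2 3.05 ± 0.23, adjusted p = 1.42e-10). The nucleoside carrier Slc29a1 (ENT1) fell and the lysosomal Slc29a3 rose, while the concentrative carrier Slc28a2 did not pass (log2 0.07 ± 0.17, adjusted p = 0.734). The only phosphate carrier of the 4 that passed was the importer Slc20a1, which fell (log2 -2.997 ± 0.46, adjusted p = 7.5e-06).

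The second question of the design is how levels under anti-IL5 compare with isotype at each stage. Solute carriers called under anti-IL5 were mostly lower than in isotype mice. Averaged over stages, 36 of 153 members passed edgeR, 26 lower and 10 higher. The lower ones include Slc35g1 and Slc25a15, which were kept through isotype stage I alone. The higher ones include Slc15a2, which was kept through anti-IL5 groups alone. Of all tested genes 18.9% passed, 10.3% lower and 8.6% higher. Of the genes that reached 10 CPM 23.3% passed, 12.7% lower and 10.7% higher. The members passed in 23.5% of cases, 16.99% lower and 6.54% higher, so the share that passed was near the background. Their median log2 change was -0.12. At stage I 7 members were lower and 0 higher, where 4.42% of all tested genes passed (1.82% lower, 2.61% higher) and 5.67% of those that reached 10 CPM. At stage II 5 were lower and 0 higher, against 1.75% (1.19% lower, 0.565% higher) and 2.24%. At stage III 15 were lower and 1 higher, against 6.37% (5.05% lower, 1.32% higher) and 8.09%. At stage IV edgeR called 0 members, against 1.05% (0.864% lower, 0.186% higher) and 1.3%. There 18 members had an unadjusted p under 0.05, and DESeq2 called 2 and limma-voom 3. Left-out libraries moved these counts. At stage I the count was 1 without isotype replicate 2, 4 without anti-IL5 replicate 1, 0 without anti-IL5 replicate 2 and 1 without anti-IL5 replicate 3. At stage II it was 1 without isotype replicate 2, anti-IL5 replicate 1 or anti-IL5 replicate 2. In brackets after a single call stand the libraries whose removal, each on its own, ended it, the highest adjusted p without one of them, and any other tool or filter that ended it. The brackets leave out calls lost when same-numbered libraries were treated as a replicate block. Those losses are listed at the end, and include Slc40a1, Slc25a15, Slc39a13 and Slc2a1 averaged over stages.

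**Figure D3:**
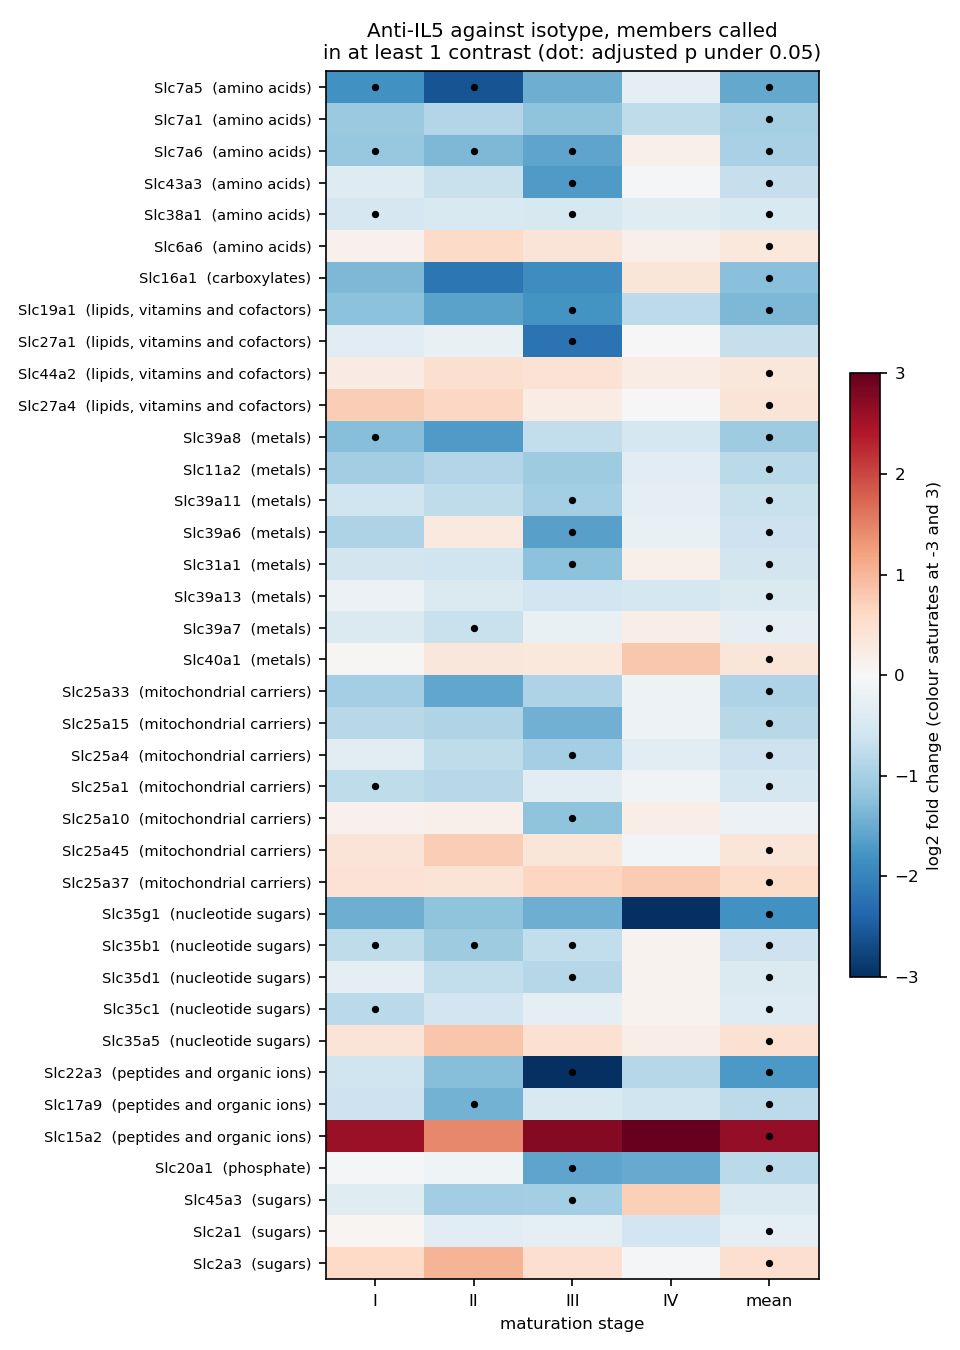
Log2 fold change of anti-IL5 against isotype (colour, blue lower and red higher, saturating at 3) at each stage and averaged over stages (columns) for 38 of the 39 solute carriers called in at least 1 of these contrasts (rows, role in brackets). Dots mark an adjusted p under 0.05 by edgeR, with 7, 5, 15, 0 and 35 dots from left to right.

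Of the members called under anti-IL5 at stages I and II, the large neutral amino acid importer had the largest fall at both. At stage I Slc7a5 read 76.7, 61.9 and 61.9 CPM in isotype libraries and 23.1, 20.5 and 13.4 CPM in anti-IL5 libraries. All 3 isotype libraries lay above all 3 anti-IL5 libraries (log2 -1.82 ± 0.42, adjusted p = 0.0151) [lost without anti-IL5 replicates 2 and 3, adjusted p up to 0.0746]. At stage II it read 10.1 and 44.2 CPM in isotype libraries and 4.07 and 4.92 CPM in anti-IL5 libraries, again without overlap (log2 -2.59 ± 0.56, adjusted p = 0.0195) [lost without isotype replicate 2 or anti-IL5 replicates 1 and 2, adjusted p up to 0.347, and by limma-voom (adjusted p = 0.0908)]. At stage III the values were 11.8, 4.46 and 9.26 CPM in isotype libraries and 3.82, 3.56 and 1.87 CPM in anti-IL5 libraries, the call missed the threshold (adjusted p = 0.063), and at stage IV it read 8.76, 3.48 and 4.49 CPM in isotype libraries and 4.65, 4.27 and 4.76 CPM in anti-IL5 libraries, with overlap (adjusted p = 0.953). Averaged over stages it was lower (log2 -1.54 ± 0.24, adjusted p = 0.000115), and this call held without each of the 22 libraries. Slc3a2, the chain with which it pairs, read 338, 306.4 and 331 CPM in isotype libraries and 312.1, 235 and 262 CPM in anti-IL5 libraries at stage I and passed in no antibody contrast (mean log2 -0.18 ± 0.09, adjusted p = 0.143).

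Slc7a6 (chr8:106168857-106198706, plus strand), y+LAT2, which also pairs with Slc3a2 and exchanges cationic for neutral amino acids, was lower at stages I, II and III. At stage I it read 55.5, 51.5 and 53.0 CPM in isotype libraries and 25.2, 23.6 and 23.8 CPM in anti-IL5 libraries (log2 -1.14 ± 0.26, adjusted p = 0.0144) [lost without isotype replicate 2 or anti-IL5 replicates 1, 2 and 3, adjusted p up to 0.0656]. At stage II it read 41.7 and 30.7 CPM in isotype libraries and 14 and 14.5 CPM in anti-IL5 libraries (log2 -1.34 ± 0.33, adjusted p = 0.0381) [lost without isotype replicates 1 and 2 or anti-IL5 replicates 1 and 2, adjusted p up to 0.196]. At stage III it read 16.8, 10.3 and 20.8 CPM in isotype libraries and 4.22, 6.63 and 4.99 CPM in anti-IL5 libraries (log2 -1.59 ± 0.28, adjusted p = 0.00163), a call that held without each library. In all 3 stages the groups did not overlap. At stage IV they overlapped, with 10.6, 5.23 and 6.55 CPM in isotype libraries and 6.56, 8.63 and 9.61 CPM in anti-IL5 libraries (log2 0.15 ± 0.28, adjusted p = 0.966). The effect at stage IV differed from that at stage III (log2 1.74 ± 0.39, adjusted p = 0.0451), a test chosen after the values were seen. This difference was lost without 8 of the 12 libraries it uses (adjusted p up to 0.14), namely isotype III replicates 1 and 3, isotype IV 2 and 3, anti-IL5 III 1 and 3 and anti-IL5 IV 2 and 3, and by limma-voom (adjusted p = 0.143). It was the only member called in the 3 tests of the antibody effect between adjacent stages, against 0.638% of all tested genes between stages III and IV (0.795% of those that reached 10 CPM) and 0 between the others. In those other 2 tests 2 members (stage II against I) and 11 (III against II) had an unadjusted p under 0.05, and DESeq2 called 1 in the second.

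Other amino acid carriers called lower averaged over stages were the cationic amino acid importer Slc7a1 (log2 -0.99 ± 0.20, adjusted p = 0.00125), Slc43a3 (log2 -0.70 ± 0.15, adjusted p = 0.00276) and the glutamine carrier Slc38a1 (log2 -0.45 ± 0.08, adjusted p = 0.000284). Slc38a1 read 99.2, 98.8 and 90.0 CPM in isotype libraries and 62.4, 72.3 and 67.8 CPM in anti-IL5 libraries at stage I (log2 -0.51 ± 0.14, adjusted p = 0.0476) [lost without isotype replicates 1, 2 and 3 or anti-IL5 replicates 1, 2 and 3, adjusted p up to 0.179, and without the filter on low counts (adjusted p = 0.0903)]. The taurine transporter Slc6a6 was higher averaged over stages (log2 0.31 ± 0.07, adjusted p = 0.0022), with 164, 199.8 and 178 CPM in isotype libraries and 248, 230.3 and 229.8 CPM in anti-IL5 libraries at stage III, where no library overlapped and the single-stage test missed the threshold (adjusted p = 0.0667). Slc1a5 and Slc7a11 passed in no antibody contrast, and their means over stages differed by log2 -0.11 ± 0.13 and log2 0.43 ± 0.24. Over the 21 members of amino acid carrier families, Slc43a3, Slc6a4 and Slc7a6os included, 5 were lower and 1 higher. Of all genes that reached 10 CPM 12.7% were lower and 10.7% higher averaged over stages.

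**Figure D4:**
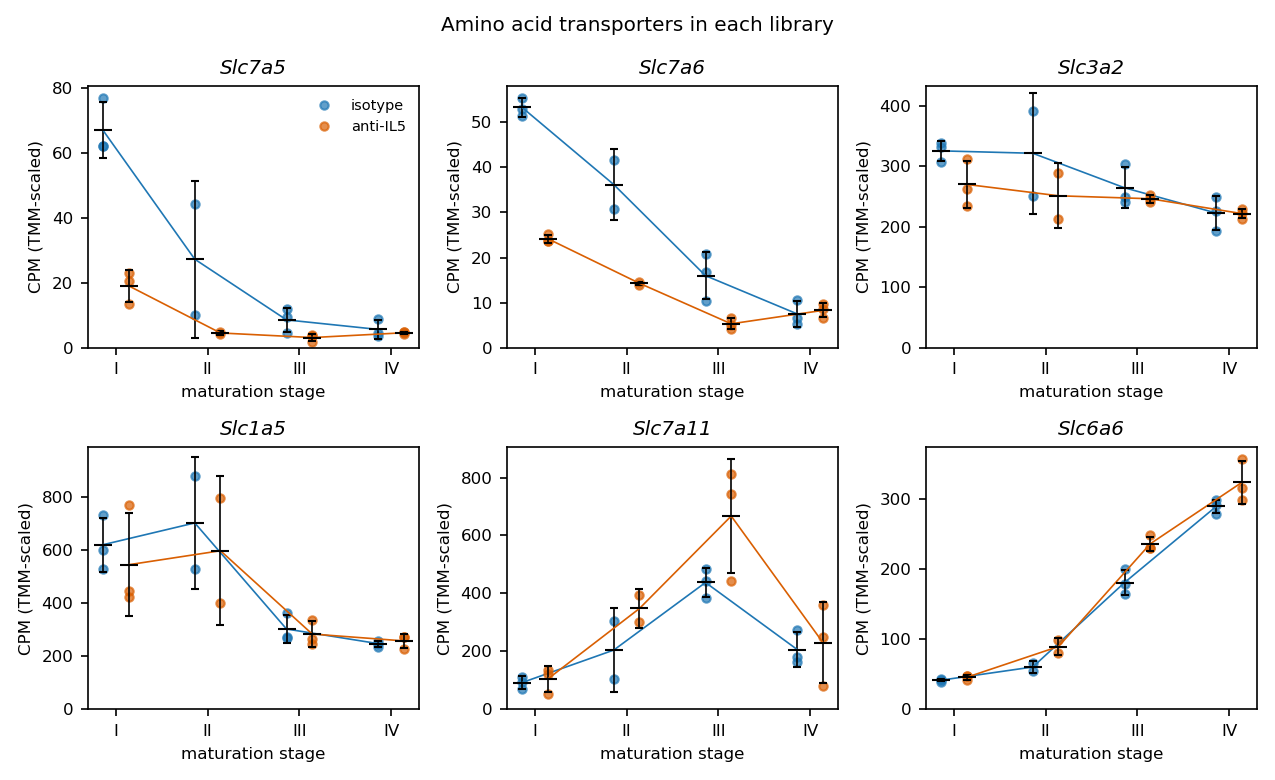
Level of 6 amino acid carriers in each library, as TMM-scaled CPM (y axis) by maturation stage (x axis) for isotype (blue) and anti-IL5 (orange) mice, with bars for mean ± SD and lines joining means. Slc7a5 and Slc7a6 are lower under anti-IL5 at stages I and II, while the points of Slc3a2, Slc1a5 and Slc7a11 overlap between antibodies at stages I and IV.

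Of 22 metal carriers 7 were lower and 1 higher averaged over stages, beside 12.7% and 10.7% of all genes that reached 10 CPM. Slc39a8, the ZIP8 importer of zinc, manganese and iron, read 17.6, 14.3 and 15.1 CPM in isotype libraries and 6.99, 6.28 and 6.23 CPM in anti-IL5 libraries at stage I without overlap (log2 -1.27 ± 0.35, adjusted p = 0.0422) [lost without isotype replicates 1, 2 and 3 or anti-IL5 replicates 1, 2 and 3, adjusted p up to 0.128], and its mean over stages was lower (log2 -1.06 ± 0.19, adjusted p = 0.000506), a call that held without each library. Slc11a2 was lower averaged over stages (log2 -0.82 ± 0.21, adjusted p = 0.00851), with 45.1, 37.5 and 30.6 CPM in isotype libraries and 22.3, 17.7 and 15.4 CPM in anti-IL5 libraries at stage I and no overlap there. The copper importer Slc31a1 was lower at stage III, at 13.9, 23.2 and 20.7 CPM in isotype libraries and 5.98, 10.7 and 8.10 CPM in anti-IL5 libraries (log2 -1.22 ± 0.26, adjusted p = 0.00585), and so was the zinc importer Slc39a6, at 13.7, 11.4 and 13.5 CPM in isotype libraries and 4.22, 5.00 and 3.20 CPM in anti-IL5 libraries (log2 -1.63 ± 0.31, adjusted p = 0.00283). Both calls held without each library. Slc39a7 was lower at stage II, at 276 and 281 CPM in isotype libraries and 184 and 169 CPM in anti-IL5 libraries (log2 -0.66 ± 0.16, adjusted p = 0.0315) [lost without isotype replicates 1 and 2 or anti-IL5 replicates 1 and 2, adjusted p up to 0.156, and without the filter on low counts (adjusted p = 0.08)], and Slc39a11, a ZIP family zinc carrier, at stage III, at 56.8, 63.8 and 68.9 CPM in isotype libraries and 31.2, 36.8 and 26.3 CPM in anti-IL5 libraries (log2 -1.01 ± 0.25, adjusted p = 0.019) [lost without isotype replicate 3 or anti-IL5 replicates 1 and 3, adjusted p up to 0.11]. The remaining lower metal carrier was the Golgi zinc exporter Slc39a13 (log2 -0.43 ± 0.14, adjusted p = 0.0348) [lost without isotype I replicates 1 and 2, isotype II replicate 2, isotype III replicate 3, isotype IV replicates 1 and 2, anti-IL5 I replicates 1 and 3, anti-IL5 II replicate 2 or anti-IL5 III replicate 2, adjusted p up to 0.111, and without the filter on low counts (adjusted p = 0.0513)]. Ferroportin, Slc40a1, was the higher one (log2 0.37 ± 0.13, adjusted p = 0.0426) [lost without isotype I replicates 1 and 2, isotype II replicate 1, isotype III replicates 1 and 3, isotype IV replicates 1 and 2, anti-IL5 I replicates 2 and 3, anti-IL5 II replicate 2, anti-IL5 III replicates 2 and 3 or anti-IL5 IV replicates 2 and 3, adjusted p up to 0.103], and at stage IV, where it read 244, 189 and 323 CPM in isotype libraries and 382, 514 and 417 CPM in anti-IL5 libraries, all anti-IL5 libraries lay above all isotype libraries without passing (adjusted p = 0.144). Slc25a37, mitoferrin 1, which brings iron into mitochondria, was higher averaged over stages (log2 0.56 ± 0.15, adjusted p = 0.00967).

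Among mitochondrial carriers, 4 of 30 were lower and 2 higher averaged over stages, beside 12.7% and 10.7% of all genes that reached 10 CPM. Slc25a1, the citrate exporter that feeds fatty acid synthesis, read 121, 176 and 135 CPM in isotype libraries and 85.0, 84.5 and 86.2 CPM in anti-IL5 libraries at stage I (log2 -0.76 ± 0.19, adjusted p = 0.0228) [lost without isotype replicate 2 or anti-IL5 replicates 1, 2 and 3, adjusted p up to 0.164]. Slc25a4 was lower at stage III, at 43.1, 41.1 and 54.1 CPM in isotype libraries and 22.5, 23.1 and 22.3 CPM in anti-IL5 libraries (log2 -1.03 ± 0.21, adjusted p = 0.00497), without overlap and without a library whose removal ended the call. The pyrimidine nucleotide carrier Slc25a33 (log2 -0.91 ± 0.20, adjusted p = 0.00275) and the ornithine carrier Slc25a15 (log2 -0.83 ± 0.27, adjusted p = 0.0352) [lost without isotype I replicates 1 and 2, isotype II replicate 2, isotype III replicates 1 and 3, isotype IV replicates 1 and 2, anti-IL5 I replicates 1 and 3, anti-IL5 II replicate 2 or anti-IL5 IV replicate 1, adjusted p up to 0.121] were lower averaged over stages. Slc25a45 was higher (log2 0.36 ± 0.09, adjusted p = 0.00751). Slc25a15 reached the membership threshold in isotype stage I alone, so its lower level under anti-IL5 is a description. Slc25a10, the dicarboxylate carrier, was lower at stage III alone among the stages, at 15.0, 22.8 and 17.1 CPM in isotype libraries and 9.80, 7.88 and 6.14 CPM in anti-IL5 libraries (log2 -1.21 ± 0.30, adjusted p = 0.0174) [lost without isotype replicate 2 or anti-IL5 replicates 2 and 3, adjusted p up to 0.107]. Its effect at stage III was not shown to differ from that at stage II (adjusted p = 0.692).

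Of the 19 nucleotide sugar carriers 4 were lower and 1 higher averaged over stages, beside 12.7% and 10.7% of all genes that reached 10 CPM. Slc35b1 was called at stages I, II and III. It read 155, 211 and 198 CPM in isotype libraries and 130.5, 105 and 97.3 CPM in anti-IL5 libraries at stage I (log2 -0.76 ± 0.17, adjusted p = 0.0113) [lost without isotype replicate 2 or anti-IL5 replicates 2 and 3, adjusted p up to 0.0858] and 131 and 136 CPM in isotype libraries and 72.3 and 55.7 CPM in anti-IL5 libraries at stage II (log2 -1.06 ± 0.21, adjusted p = 0.0128) [lost without isotype replicate 2 or anti-IL5 replicate 2, adjusted p up to 0.108]. At stage III it read 44.4, 65.9 and 63.2 CPM in isotype libraries and 37.7, 29.3 and 36.4 CPM in anti-IL5 libraries (log2 -0.75 ± 0.17, adjusted p = 0.0106) [lost without isotype replicate 3 or anti-IL5 replicate 2, adjusted p up to 0.0631]. The libraries of both antibodies did not overlap at these stages, and at stage IV they did, at 23.6, 21.97 and 25.5 CPM in isotype libraries and 25.4, 25.97 and 25.2 CPM in anti-IL5 libraries. The GDP-fucose carrier Slc35c1 was lower at stage I, with 119, 134 and 117 CPM in isotype libraries and 74.0, 61.8 and 75.1 CPM in anti-IL5 libraries (log2 -0.81 ± 0.19, adjusted p = 0.0143) [lost without isotype replicate 2 or anti-IL5 replicate 2, adjusted p up to 0.0858], and Slc35d1, a carrier of UDP-glucuronic acid, at stage III, with 140.5, 115 and 178 CPM in isotype libraries and 80.8, 86.2 and 71.8 CPM in anti-IL5 libraries (log2 -0.86 ± 0.22, adjusted p = 0.0198) [lost without isotype replicate 3 or anti-IL5 replicate 3, adjusted p up to 0.121]. Slc35g1 was lower averaged over stages (log2 -1.81 ± 0.41, adjusted p = 0.00374), and Slc35a5 was higher (log2 0.47 ± 0.11, adjusted p = 0.00526). Slc35g1 reached the membership threshold in isotype stage I alone, so its lower level under anti-IL5 is a description.

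At stage III the organic cation carrier Slc22a3 had the largest fall of the members called. It read 13.2, 8.75 and 30.6 CPM in isotype libraries and 1.67, 0.0961 and 1.16 CPM in anti-IL5 libraries, so all isotype libraries were high and all anti-IL5 libraries low (log2 -4.15 ± 0.83, adjusted p = 0.00492), and the call held without each library. Slc43a3 read 50.8, 59.4 and 77.9 CPM in isotype libraries and 15.7, 21.6 and 20.5 CPM in anti-IL5 libraries (log2 -1.70 ± 0.28, adjusted p = 0.000881), which also held without each library. Slc19a1 read 7.00, 4.55 and 5.71 CPM in isotype libraries and 2.25, 1.73 and 0.979 CPM in anti-IL5 libraries (log2 -1.79 ± 0.47, adjusted p = 0.0262) [lost without isotype replicates 1 and 3 or anti-IL5 replicates 2 and 3, adjusted p up to 0.137, and by limma-voom (adjusted p = 0.0627)]. In each of these the lowest isotype library lay above the highest anti-IL5 library, as it did for the next 3 members. Slc27a1 read 2.29, 2.36 and 6.78 CPM in isotype libraries and 0.294, 0.769 and 1.34 CPM in anti-IL5 libraries (log2 -2.22 ± 0.64, adjusted p = 0.0396) [lost without isotype replicate 3 or anti-IL5 replicates 1, 2 and 3, adjusted p up to 0.239, and by limma-voom (adjusted p = 0.0731)], and the phosphate importer Slc20a1 read 19.9, 9.79 and 21.9 CPM in isotype libraries and 7.16, 7.11 and 2.85 CPM in anti-IL5 libraries (log2 -1.59 ± 0.45, adjusted p = 0.0389) [lost without isotype replicates 1 and 3 or anti-IL5 replicates 1, 2 and 3, adjusted p up to 0.192, and by limma-voom (adjusted p = 0.0686) and without the filter on low counts (adjusted p = 0.0735)]. Slc45a3 read 9.93, 7.52 and 8.72 CPM in isotype libraries and 6.47, 4.04 and 2.49 CPM in anti-IL5 libraries (log2 -1.01 ± 0.30, adjusted p = 0.0472) [lost without isotype replicates 1 and 3 or anti-IL5 replicates 2 and 3, adjusted p up to 0.238, and by limma-voom (adjusted p = 0.0929)]. The number of members called at stage III was 8 without isotype replicate 3, 9 without anti-IL5 replicate 2 and 8 without anti-IL5 replicate 3, instead of 16.

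Markers of other cells moved at the same stage. At stage III the 6 basophil and mast cell markers summed to 188.5 to 541.1 CPM in isotype libraries and 43.3 to 55.5 CPM in anti-IL5 libraries, and 3 of the 5 tested, Mcpt8, Cpa3 and Ms4a2, were lower. The sixth, Cma1, had a group mean of at most 0.352 CPM. The 7 monocyte and macrophage markers summed to 2343 to 3882 CPM in isotype libraries and 1931 to 1943 CPM in anti-IL5 libraries, without overlap, with Vcam1 called lower. Without a call, group means of Ly6c2, C1qa, C1qb and Ms4a7 were lower under anti-IL5. Those of Csf1r (246.5 against 367.1 CPM) and F13a1 (6.293 against 11.45 CPM) were higher, also without a call. The 10 eosinophil markers summed to 42590 to 49550 CPM and 26600 to 31920 CPM there, with Epx and Prg3 called lower. Without a call, group means of Prg2, Ear1, Ear2 and Ear6 were lower under anti-IL5. Those of Ccr3 (442.9 against 784.6 CPM), Il5ra (266.9 against 351.2 CPM), Siglecf and Alox15 were higher, also without a call. The 10 neutrophil markers summed to 6659 to 10140 CPM in isotype libraries and 9982 to 12320 CPM in anti-IL5 libraries, with overlap. All 10 had a higher group mean under anti-IL5, and S100a9 alone was called. The part of these markers in the stage III calls was not tested. At stages I and II the basophil and mast cell sums were 951 to 1491 and 390 to 585 CPM in isotype libraries and 752 to 1677 and 226 to 340.3 CPM in anti-IL5 libraries, and none of the 5 tested passed by edgeR. At stage I the eosinophil markers Ccr3 and Alox15, the neutrophil marker Retnlg, the monocyte marker Csf1r and the B lineage marker Cd79a were higher under anti-IL5, and at stage II Retnlg was. Their part in the calls at these stages was not tested. Averaged over stages, 4 of the 10 neutrophil markers (Ltf, Ngp, S100a9 and Retnlg) were higher under anti-IL5. Of the 10 eosinophil markers 2 were higher (Ccr3 and Alox15) and 4 lower (Epx, Prg2, Prg3 and Ear6). Cpa3 and Ms4a2 were also lower and Csf1r and Cd79a higher, and the part of these in the calls averaged over stages was not tested.

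Of the 8 sugar carriers 1 was higher and 1 lower averaged over stages, and of the 8 carboxylate carriers 1 was lower. The shares of all genes that reached 10 CPM were 10.7% higher and 12.7% lower. Slc2a3 was higher averaged over stages (log2 0.51 ± 0.12, adjusted p = 0.00422), with 167 and 145 CPM in isotype libraries and 338 and 292 CPM in anti-IL5 libraries at stage II, where all anti-IL5 libraries lay above all isotype libraries and the stage's own test missed the threshold (adjusted p = 0.0648). Slc2a1 was lower (log2 -0.28 ± 0.09, adjusted p = 0.0403) [lost without isotype I replicates 1 and 3, isotype II replicates 1 and 2, isotype III replicates 2 and 3, isotype IV replicates 2 and 3, anti-IL5 I replicate 2, anti-IL5 II replicates 1 and 2, anti-IL5 III replicates 1 and 2 or anti-IL5 IV replicates 2 and 3, adjusted p up to 0.0911, and by limma-voom (adjusted p = 0.0828) and without the filter on low counts (adjusted p = 0.0678)]. Slc16a1 was lower averaged over stages (log2 -1.25 ± 0.36, adjusted p = 0.0188) [lost without isotype II replicate 2 and isotype IV replicate 1, adjusted p up to 0.323, and by limma-voom (adjusted p = 0.0538) and without the filter on low counts (adjusted p = 0.0555)], and at stage I it read 72.3, 87.3 and 55.7 CPM in isotype libraries and 17.6, 26.3 and 40.7 CPM in anti-IL5 libraries with no overlap (adjusted p = 0.172). Slc16a3 did not pass (log2 -0.12 ± 0.09, adjusted p = 0.368). Its chaperones are on a list below.

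The carrier with the largest rise was Slc15a2 (chr16:36750177-36784962, minus strand), the peptide transporter PEPT2, which imports di- and tripeptides. It read 0.127, 0 and 5.06 CPM in isotype libraries and 7.45, 14.3 and 13.5 CPM in anti-IL5 libraries at stage III and 1.11, 0 and 2.62 CPM in isotype libraries and 11.0, 23.1 and 15.1 CPM in anti-IL5 libraries at stage IV. At both stages every anti-IL5 library lay above every isotype library, and isotype replicate 3 was the highest isotype library at both. It passed averaged over stages (log2 2.64 ± 0.64, adjusted p = 0.00605) and at no single stage (adjusted p = 0.141 at stage III and 0.163 at stage IV). Slc15a2 reached the membership threshold in anti-IL5 groups alone, so its higher level under anti-IL5 is a description. The vesicular nucleotide transporter Slc17a9 was lower at stage II, at 51.3 and 27.9 CPM in isotype libraries and 18.1 and 11.6 CPM in anti-IL5 libraries (log2 -1.42 ± 0.32, adjusted p = 0.024) [lost without isotype replicate 1 or anti-IL5 replicates 1 and 2, adjusted p up to 0.184]. The fatty acid transport protein Slc27a4 (log2 0.39 ± 0.12, adjusted p = 0.0232) [lost without isotype II replicate 2 or anti-IL5 II replicate 1, adjusted p up to 0.0568] and the choline transporter-like Slc44a2 (log2 0.35 ± 0.08, adjusted p = 0.00452) were higher averaged over stages.

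The test of stage by antibody interaction called 0 members by edgeR, against 1.07% of all tested genes and 1.39% of those that reached 10 CPM. At an unadjusted p under 0.05 it held 19 members, and DESeq2 called 7 and limma-voom 2. A call at one stage and not at another is therefore not shown to be a difference between stages. Slc7a6 was not called by this test either. Its difference above came from a contrast chosen after the values were seen, and was lost by limma-voom and without several of its libraries.

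Genes that work with solute carriers were taken from a list of 22 partners and nutrient sensing genes, of which 21 were tested. Averaged over stages 5 were lower under anti-IL5 and 1 higher, and the highest count in a single stage was 3, at stage III. Of all tested genes 10.3% were lower and 8.6% higher averaged over stages, and 6.37% passed at stage III. Emb (embigin), a chaperone of lactate carriers, was lower at stages I, II and III. It read 180.3, 241 and 205 CPM in isotype libraries and 55.3, 65.2 and 98.7 CPM in anti-IL5 libraries at stage I, 138 and 133 CPM in isotype libraries and 28.6 and 31.7 CPM in anti-IL5 libraries at stage II and 159.7, 221 and 139.9 CPM in isotype libraries and 51.6, 92.6 and 96.5 CPM in anti-IL5 libraries at stage III. At stage IV it read 207, 105 and 126 CPM in isotype libraries and 224, 288 and 312.2 CPM in anti-IL5 libraries. The antibodies did not overlap at any of the 4 stages, with anti-IL5 libraries lower at stages I to III and higher at stage IV. The difference at stage IV did not pass. The antibody effect on Emb at stage IV was called higher than at stage III, beside 0.638% of all tested genes. That test was chosen after the values were seen. Basigin (Bsg), the chaperone of Slc16a1 and Slc16a3, the transferrin receptor Tfrc, the metallothionein Mt1 and asparagine synthetase (Asns) were also lower averaged over stages, and Txnip, which lowers glucose uptake, was higher. Txnip group means rose from 50.0 ± 5.73 CPM at stage I to 852 ± 77.8 CPM at stage IV in isotype mice (mean ± SD, n = 3). Between stages I and IV 12 of the 21 were higher and 5 lower in isotype mice, and 14 and 5 in anti-IL5 mice. For this list and the next, the shares of all tested genes were 32.3% and 33.9% in isotype mice. In anti-IL5 mice these shares were 30.7% and 32.8%. Of 45 transporter genes of related families with other symbols, 36 were tested. Averaged over stages 3 were higher under anti-IL5 (Slco4c1, Sfxn3 and Letm2) and 3 lower (Sfxn1, Mfsd10 and Spns2). Between stages I and IV 13 were higher and 8 lower in isotype mice, and 12 and 10 in anti-IL5 mice. Sfxn1, a serine transporter of mitochondria, read 147, 139 and 181 CPM in isotype libraries and 92.6, 69.5 and 64.4 CPM in anti-IL5 libraries at stage III, without overlap. It was called lower there, and its antibody effect at stage IV was called higher than at stage III.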

How the data were processed

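RNA was sequenced from 22 libraries of sorted mouse bone marrow eosinophil stages, made from full-length cDNA amplified over 17 cycles without strand marking, per the labels' protocols. The authors deposited raw counts of reads per gene. STAR 2.6.1a, the genome build mm10 and DESeq2 are named in the submitters' processing notes, with no role given for DESeq2, and the tool and annotation behind the counts, and any strand option, are not given in the sources used. Rows that name no gene were left out of library sizes. Reads with no feature were 12.65% to 22.11% and ambiguous reads 1.858% to 2.389%.

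Membership used CPM over the gene total, with a threshold of 10. The members, roles and lists were chosen with earlier results of these data known. Tests used edgeR 4.0.16 (R 4.3.3) quasi-likelihood fits with TMM scaling and 1 model of 8 groups over 22 libraries, on the 12387 of 16619 detected genes that passed filterByExpr. P-values were adjusted by Benjamini-Hochberg over all of them. Errors after log2 fold changes are standard errors. The step was tested on simulated data with known changes. Alternatives were DESeq2 1.42.0, limma-voom (limma 3.58.1), DESeq2 size factors, no filter, a replicate block and leaving out each library. Figures used matplotlib 3.10.9.

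Named members were those called under anti-IL5, the largest changes without overlap between stages, a list fixed by name, and the members of each role with the widest range of group means. Others were chosen after their values were seen. Gene positions are from GENCODE vM21 on GRCm38, the assembly called mm10. Of the members 16 share exon bases with another gene, and Slc10a3, Slc16a6, Slc35b3 and Slc4a2 share at least 10% of theirs, so their reads cannot be told apart from those of the neighbour without strand. Values of some members are not reported here, and they remain in the counts.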

Additional observations from a re-analysis of the deposited data

Results flagged for a closer look

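For Slc7a6 the effect of anti-IL5 differed between stages IV and III by 1.74 on the log2 scale, tested as a contrast of the same edgeR fit and chosen after the data were seen. Anti-IL5 libraries were below isotype libraries in all cases at stage III and overlapped with them at stage IV. The value was not past the threshold under limma-voom, and its dependence on libraries stands beside the result.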

How the results depend on the processing

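The number of members was 153, and it was 173 at a threshold of 5 CPM, 120 at 20 CPM, 151 with TMM-scaled CPM and 152 to 155 without single libraries. Of 2280 alternative values for 145 named results, 2063 kept direction and side of the threshold, 217 kept direction and lost the threshold, and 0 reversed. Members called at stage I numbered 16 by DESeq2, 16 by limma-voom and 15 with the random replicate block, instead of 7. At stage II they were 12 by DESeq2 and 9 with the edgeR replicate block, instead of 5. At stage IV they were 2 by DESeq2, 3 by limma-voom, 2 with the edgeR replicate block and 3 with the random replicate block, instead of 0. The interaction held 7 by DESeq2, 2 by limma-voom and 6 with the random replicate block, instead of 0. For the antibody effect between stages II and III, DESeq2 called 1 instead of 0. Between stages III and IV it was 5 by DESeq2, 2 with the edgeR replicate block and 0 by limma-voom with or without the random block, instead of 1. The cause was not tested. Without single libraries the counts ran from 0 to 8 at stage I, 1 to 4 at II, 8 to 16 at III, 0 to 1 at IV, 33 to 41 averaged over stages and 0 to 2 for the interaction. In isotype mice they ran from 6 to 24 for stage II against I, 40 to 59 for III against II, 50 to 58 for IV against III and 94 to 98 for IV against I. In anti-IL5 mice they ran from 12 to 27, 45 to 64, 35 to 44 and 88 to 95. Replicate numbers are shared by the labels only. Deviations of same-numbered libraries correlated best with their own number in 20 of 22 comparisons across antibodies and 57 of 60 across stages, a hint from the data and not the design, and 18 of 41 correlations exceeded 0.1. With the random replicate block calls were lost, with the adjusted p in brackets, for Slc7a5 at stage II (0.0935), for Slc19a1 (0.067), Slc20a1 (0.0676), Slc27a1 (0.0676), Slc38a1 (0.0519) and Slc45a3 (0.102) at stage III and for Slc16a1 (0.117), Slc20a1 (0.0807), Slc22a3 (0.0686), Slc25a15 (0.0583), Slc2a1 (0.14), Slc39a13 (0.0712) and Slc40a1 (0.0854) averaged over stages. Also lost were the difference of Slc7a6 between stages III and IV (0.0771), Slc11a1 from stage I to II (0.0855) and Slc16a9 from II to III (0.0646) in isotype mice and, with the edgeR block, Slc8a1 from I to II in anti-IL5 mice (0.0575). A gene at 0 counts in a group is limited by the floor of 3 counts, 0.203 to 0.419 CPM per library.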
